A study of Mus musculus with 8 samples.

Results

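The genes followed here belong to autophagy and mitophagy: the transcription factor gene Foxo3 together with Bnip3l, Bnip3, Sqstm1, Ulk1, Becn1, Atg7, Map1lc3b, Gabarapl1 and Gabarapl2. Every probe on the arrays that carried 1 of these gene names and was not a control was taken. This gave 17 of 39429 probes and 10 of 31660 genes: 4 probes for Bnip3l, 3 for Bnip3, 2 each for Foxo3 and Atg7, and 1 for each of the other genes. The cells were early erythroid progenitors of C57BL/6 mouse fetal liver at E14.5. Magnetic beads had removed cells bearing lineage markers, Sca-1, CD16/32, CD41 or CD34, and the sort then kept c-kit-positive cells in the lowest 10% for CD71. The cells were infected and kept in culture for 3 days before RNA was taken. The groups, each with 2 arrays, were a virus encoding shRNA 1 against an RNA-binding protein, with DEX; a virus encoding shRNA 2 against it, with DEX; a control virus with DEX; and the control virus without DEX. DEX is a glucocorticoid, as the series title has it, and all 8 samples carried a virus. The protein is not named in the labels and is known from the published study as Zfp36l2, which promotes the decay of mRNAs with AU-rich elements. The labels do not say whether the arrays of a group came from separate cultures or litters, so a p-value rests on array-to-array spread that may be technical.

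In autophagy a membrane closes around cytoplasm and carries it to the lysosome. The ULK1 kinase starts the process, a lipid kinase complex that holds Beclin 1 (Becn1) marks the membrane, and ATG7 is the activating enzyme that lets ATG8 proteins such as LC3B (Map1lc3b), Gabarapl1 and GATE-16 (Gabarapl2) be joined to lipid on it. Receptors such as p62 (Sqstm1) and the mitochondrial proteins NIX (Bnip3l) and BNIP3 bring cargo to these ATG8 proteins. In red cell formation NIX is needed for the clearance of mitochondria from reticulocytes, and FOXO3 is a transcription factor that rises during erythroid maturation and is known to activate autophagy genes. Glucocorticoids favour self-renewal over maturation in early erythroid progenitors.

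The oligonucleotides that measured Sqstm1 and Becn1 and the promoters of 4 of the genes are given here. They were chosen because Foxo3 is the transcription factor of the set and Sqstm1 had the largest DEX difference. Becn1 alone of the 10 was lower with DEX without overlap between arrays, where 16.5% of all genes tested were. Gabarapl1 and Bnip3 each hold a motif match. Atg7 and Gabarapl2 also hold matches and are not printed. The 60-base probes lie on the minus strand of build mm9, that of Sqstm1 at chr11:50015985-50016044 and that of Becn1 at chr11:101151771-101152713, an interval of 943 bases that is longer than the oligonucleotide. Exons and untranslated regions are not assigned to any probe, because no mm9 annotation was at hand.
Sqstm1 probe: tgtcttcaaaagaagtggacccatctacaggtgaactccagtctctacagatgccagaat
Becn1 probe: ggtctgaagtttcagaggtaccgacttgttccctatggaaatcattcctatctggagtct
The promoters, from 250 bases before to 50 bases after the annotated start, come from RefSeq (build GRCm38.p6) and were found for 8 of the 10 genes; Bnip3l and Becn1 had no entry. They are Foxo3 at chr10:42276646-42276945 (minus strand), Sqstm1 at chr11:50210771-50211070 (minus strand), Gabarapl1 at chr6:129532942-129533241 (plus strand) and Bnip3 at chr7:138909457-138909756 (minus strand). Capitals mark the forkhead core TAAACA in Gabarapl1 and the E-box CACGTG in Bnip3.
Foxo3 promoter: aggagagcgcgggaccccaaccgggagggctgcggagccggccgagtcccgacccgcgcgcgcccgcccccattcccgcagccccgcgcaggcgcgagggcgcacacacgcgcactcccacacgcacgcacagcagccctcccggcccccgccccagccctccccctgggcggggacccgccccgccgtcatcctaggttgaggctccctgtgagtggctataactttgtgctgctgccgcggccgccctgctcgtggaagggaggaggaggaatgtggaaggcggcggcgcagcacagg
Sqstm1 promoter: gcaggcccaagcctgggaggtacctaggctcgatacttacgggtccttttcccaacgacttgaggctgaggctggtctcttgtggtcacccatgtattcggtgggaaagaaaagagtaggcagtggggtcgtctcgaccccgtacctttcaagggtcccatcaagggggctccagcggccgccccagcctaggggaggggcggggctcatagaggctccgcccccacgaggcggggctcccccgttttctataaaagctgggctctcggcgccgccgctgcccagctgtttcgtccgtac
Gabarapl1 promoter: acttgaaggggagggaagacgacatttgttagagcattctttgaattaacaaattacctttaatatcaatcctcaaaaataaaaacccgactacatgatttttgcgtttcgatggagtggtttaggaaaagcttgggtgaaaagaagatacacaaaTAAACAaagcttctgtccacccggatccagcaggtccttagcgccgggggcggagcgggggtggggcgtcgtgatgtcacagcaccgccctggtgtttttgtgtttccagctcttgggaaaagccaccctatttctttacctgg
Bnip3 promoter: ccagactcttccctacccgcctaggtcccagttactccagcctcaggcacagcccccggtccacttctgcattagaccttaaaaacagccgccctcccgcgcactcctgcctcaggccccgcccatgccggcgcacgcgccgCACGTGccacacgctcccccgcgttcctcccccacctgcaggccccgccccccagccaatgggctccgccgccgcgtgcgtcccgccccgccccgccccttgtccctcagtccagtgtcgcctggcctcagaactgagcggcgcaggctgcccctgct
Both strands were searched. The forkhead core, the letters that FOXO factors bind, occurred in 1 of the 8 promoters, that of Gabarapl1, 94 bases before the start, against 13.44% of 32851 mouse promoters of the same length. The E-box, read by TFEB and related factors, occurred in 2 of 8, Bnip3 at 108 bases and Atg7 at 132 bases before the start, against 7.15%. The core ACGTG of hypoxia response elements, which lies within each E-box, occurred in those promoters and in that of Gabarapl2 (3 of 8, against 19.62%). The GATA sequence AGATAA occurred in 0 of 8, against 11.18%. Each match describes letters in these windows.

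Zfp36l2, the gene aimed at, was lower with each shRNA than with control virus under DEX, without overlap: its level was 3.92 and 4.09 with shRNA1 and DEX, 3.70 and 4.12 with shRNA2 and DEX, 5.42 and 5.55 with control virus and DEX, and 3.49 and 3.85 with control virus without DEX (lower array first). A level here is the log2 signal minus the 75th percentile of its array, so 1 unit is a 2-fold difference. The erythroid identity genes Gata1, Klf1, Epor, Kit, Tfrc, Tal1, Nfe2 and Lmo2 were well above background on 8 of 8 arrays. This is as the labelled cell type has them. The lists for other cells differed. Each of 12 neutrophil and granulocyte precursor genes was well above background on at least 1 array of every group. The same held for each of 9 megakaryocyte and platelet genes. Of 9 hepatocyte genes, Alb, Fgb and Ttr were not well above background on any array and 6 entered the test; of 9 lymphoid genes, Cd8a, Ebf1 and Rag1 were not well above background on any array and 4 entered the test. Between 58.98% and 62.55% of probes were well above background per array. Replicate 1 of every group lay on slide 1 and replicate 2 on slide 2, and the slides stood apart: the deviations of arrays from their group means correlated between every pair of groups (r from 0.43 to 0.86 over genes). Each difference is therefore given for the mean and for both slides, and the test is given without the slide and with the slide as a block.

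The levels of the 10 genes are given by role, with slide 1 before slide 2 in each group. All 17 probes were well above background and none was saturated on the 8 arrays, so every gene entered the test. In bulk RNA fewer cells of a type and less RNA per cell cannot be told apart.

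Foxo3, the transcription factor, had levels of 2.11 and 1.03 with shRNA1 and DEX, 1.03 and 0.18 with shRNA2 and DEX, 0.98 and 0.26 with control virus and DEX, and 1.87 and 0.86 with control virus without DEX (probe at chr10:41967288-41967347, mm9, minus strand). Both slides put shRNA1 and the cells without DEX high, and shRNA2 and control with DEX low. The arrays with shRNA1 did not overlap those of control with DEX, and cleared those of shRNA2 by less than the rounding of these values. This holds for the brighter of 2 Foxo3 probes, annotated to a cDNA clone, and the arrays of the dimmer one overlapped in every comparison.

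Bnip3l, the NIX receptor gene, had levels of 5.12 and 4.36 with shRNA1 and DEX, 4.69 and 3.95 with shRNA2 and DEX, 4.73 and 4.14 with control virus and DEX, and 5.22 and 4.56 with control virus without DEX (chr14:67606210-67606269, mm9, minus strand). Its order was the cells without DEX, shRNA1, control with DEX and shRNA2 on the mean, as for Map1lc3b. Bnip3, the related receptor, had 4.50 and 2.04 with shRNA1 and DEX, 4.08 and 3.43 with shRNA2 and DEX, 4.67 and 3.32 with control virus and DEX, and 5.72 and 3.44 with control virus without DEX (chr7:146082760-146082819, mm9, minus strand). On slide 2 it was near one level in 3 groups and low with shRNA1. Sqstm1, which encodes the p62 receptor, had 2.92 and 0.65 with shRNA1 and DEX, 2.78 and 0.47 with shRNA2 and DEX, 2.08 and 0.46 with control virus and DEX, and 3.64 and 1.42 with control virus without DEX. It was highest without DEX on both slides, and every group's slide 1 array exceeded every slide 2 array.

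Ulk1, the starting kinase gene, had levels of 5.71 and 3.32 with shRNA1 and DEX, 4.92 and 2.71 with shRNA2 and DEX, 4.18 and 2.61 with control virus and DEX, and 4.89 and 3.54 with control virus without DEX (chr5:111213514-111213573, mm9, minus strand). Control cells with DEX were the lowest on both slides. Becn1 had 1.73 and 1.19 with shRNA1 and DEX, 1.14 and 1.07 with shRNA2 and DEX, 1.28 and 1.09 with control virus and DEX, and 1.32 and 1.29 with control virus without DEX. Its groups were close except for slide 1 with shRNA1, the highest array.

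Atg7, the activating enzyme gene, had levels of 0.30 and 0.03 with shRNA1 and DEX, 0.29 and 0.00 with shRNA2 and DEX, 0.08 and -0.07 with control virus and DEX, and 0.15 and 0.04 with control virus without DEX (chr6:114809893-114809952, mm9, plus strand). It varied least of the 10, with a range of 0.37 over the 8 arrays, against 3.69 for Bnip3. Map1lc3b had 3.64 and 2.22 with shRNA1 and DEX, 3.20 and 1.91 with shRNA2 and DEX, 3.23 and 2.05 with control virus and DEX, and 3.59 and 2.57 with control virus without DEX (chr8:124121771-124121830, mm9, plus strand). Gabarapl2 had 4.49 and 3.56 with shRNA1 and DEX, 4.26 and 3.63 with shRNA2 and DEX, 3.95 and 3.28 with control virus and DEX, and 4.40 and 3.73 with control virus without DEX (chr8:114476386-114476445, mm9, plus strand). Both ATG8 genes were lower in control cells with DEX than without it on each slide. Gabarapl1 had 4.76 and 5.26 with shRNA1 and DEX, 5.31 and 5.66 with shRNA2 and DEX, 5.24 and 5.38 with control virus and DEX, and 5.30 and 5.40 with control virus without DEX (chr6:129492254-129492313, mm9, plus strand). It was the one gene with higher values on slide 2 in every group, and shRNA1 was its lowest group. When the 4 groups of each gene were put in order of their means, the arrays of neighbouring groups overlapped for all 10 genes, except for Becn1 in control cells with and without DEX.

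**Figure D1:**
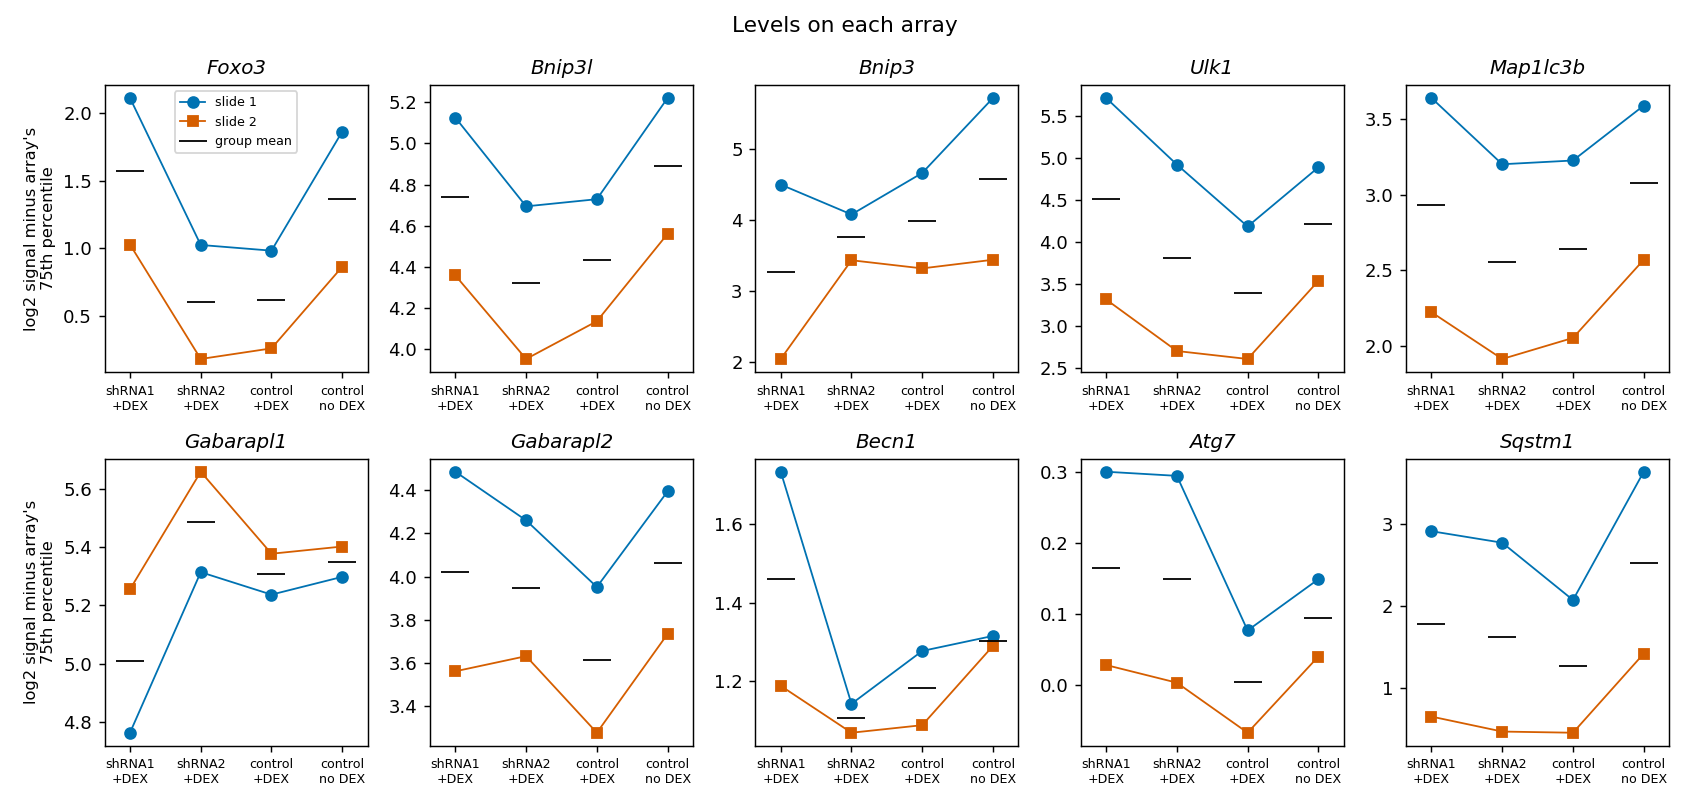
Levels of the 10 genes on each array, as log2 signal minus the array's 75th percentile, in the 4 groups (x axis, 2 arrays each). Circles are slide 1, squares slide 2 and black bars group means; lines join arrays of a slide. For Sqstm1 the gap between slides (3.64 and 1.42 without DEX) exceeds those between groups, and Gabarapl1 alone runs higher on slide 2.

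The first comparison asked what DEX did in control-virus cells. All 10 genes had lower mean levels with DEX than without it, each on both slides, although Gabarapl1 turned slightly positive under 4 alternative scalings (up to 0.052) and Atg7 under 1. Their median difference was -0.45 on the log2 scale, against -0.08 for all 19128 genes tested, of which 38.39% had a positive difference. The size of that median rested on single arrays where the slide was not in the fit: it was -0.11 without replicate 1 and -0.87 without replicate 2 of the cells lacking DEX, and -0.91 and -0.07 without replicates 1 and 2 of control cells with DEX. With the slide as a block it stayed between -0.50 and -0.40 when any of these 4 arrays was left out. No gene of the 10 passed the test at an adjusted p of 0.05 (limma, Benjamini-Hochberg over all genes), without the block (0% of all genes called) or with it (0.23% called, 0.141% higher and 0.0889% lower). At an unadjusted p below 0.05 limma without the block gave 3.11% of all genes and 0 of the 10. Sqstm1 had the largest difference, with a level of 1.27 ± 1.15 with DEX and 2.53 ± 1.57 without it (SD, n = 2 each). The difference was -1.27 (slides -1.57 and -0.97), a 2.41-fold lower level; limma's SE was 1.23 without the block and 0.24 with it, and its adjusted p was 1 without the block and 0.131 with it. Foxo3 differed by -0.74 (slides -0.88 and -0.60), 1.67-fold lower, with a limma adjusted p of 0.244 with the slide as a block. Ulk1 differed by -0.81 (slides -0.70 and -0.93; limma adjusted p = 0.497 with the block).

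The mitochondrial receptor genes differed by -0.46 for Bnip3l (slides -0.49 and -0.42) and -0.59 for Bnip3 (slides -1.06 and -0.12). Of the ATG8 genes, Map1lc3b differed by -0.44 (slides -0.36 and -0.52) and Gabarapl2 by -0.45 (slides -0.44 and -0.46), whereas Gabarapl1 was at -0.04 with a 95% interval of -0.54 to 0.45 with the block. Becn1 at -0.12 and Atg7 at -0.09 were near the middle of all genes. Becn1 was the only one whose arrays did not overlap between the groups (lower), where 16.5% of all genes were lower and 10.4% higher without overlap. With the slide as a block, Foxo3, Bnip3l, Ulk1 and Sqstm1 had an unadjusted p below 0.05 (4 of 10), against 5.48% of all genes lower and 4.07% higher.

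The second comparison asked what shRNA1 did under DEX. Ulk1 and Foxo3 had the largest differences, both positive, and 8 of the 10 genes were higher than in control cells with DEX on both slides, where 62.06% of all genes had a positive difference (on the array median as the scale, 3 of the 10 had a positive mean difference). Ulk1 had a level of 4.51 ± 1.69 with shRNA1 and 3.40 ± 1.11 with control virus (SD, n = 2 each), a difference of 1.11 or 2.17-fold (slides 1.52 and 0.71; limma adjusted p = 0.923, and 0.242 with the block). Foxo3 had 1.57 ± 0.77 with shRNA1 and 0.62 ± 0.51 with control virus (SD, n = 2 each). It differed by 0.95, 1.93-fold (slides 1.13 and 0.77), with a limma SE of 0.59 without the block and 0.19 with it. Its limma adjusted p was 0.923 without the block and 0.229 with it. No gene of the 10 passed, and with or without the block 0% of all genes did; at an unadjusted p below 0.05 limma gave 400 genes (2.09%) without the block and 3407 with it. Foxo3 was the only one of the 10 without overlap between the groups (higher), where 18% of all genes were higher and 7.56% lower without overlap. With the block, Foxo3 and Ulk1 had an unadjusted p below 0.05 (2 of 10), against 13.4% of all genes higher and 4.45% lower.

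The median of the 10 genes was 0.30 with shRNA1, against 0.18 for all genes, and that order turned with normexp (0.22 against 0.25) and with no filter on dim probes (0.30 against 0.34). Without the block it was -0.06 and 0.78 without replicates 1 and 2 of shRNA1, and 0.68 and 0.04 without replicates 1 and 2 of control cells with DEX. With the block it was 0.21 and 0.46 without replicates 1 and 2 of shRNA1, and 0.25 and 0.35 without those of control cells. Sqstm1 was at 0.52 (slides 0.84 and 0.20), Gabarapl2 at 0.41, Bnip3l at 0.31, Map1lc3b at 0.29, Becn1 at 0.28 and Atg7 at 0.16. These differences depended on the scaling: on the array median, where the median of all genes was -0.23, Bnip3l, Map1lc3b, Gabarapl2, Becn1 and Atg7 lay between -0.25 and 0.00, while Foxo3 and Ulk1 stayed positive at 0.54 and 0.71. Bnip3 and Gabarapl1 had negative differences. Bnip3 was at -0.72, nearly all of it on slide 2 (slides -0.16 and -1.28), and Gabarapl1 was at -0.30 (slides -0.47 and -0.12).

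With shRNA2 under DEX the 10 genes split evenly, 5 positive and 5 negative, around a median of 0.06, against 0.01 for all genes, an order that turned with normexp (0.03 against 0.13) and with no filter on dim probes (0.06 against 0.14). Leaving out 1 array moved this median between -0.46 (without shRNA2 replicate 1) and 0.39 (without replicate 1 of control with DEX) without the block, and between -0.03 (without replicate 1 of control with DEX) and 0.14 (without shRNA2 replicate 1) with it; it was 0.35 and 0.05 without shRNA2 replicate 2, and -0.38 and 0.10 without replicate 2 of control with DEX, without and with the block. None passed (0% of all genes called without the block, 0.00523% with it). At an unadjusted p below 0.05, 0 of the 10 were reached without the block (1.25% of all genes) or with it (2.82% of all genes higher, 2.88% lower). None was free of overlap between groups, against 7.26% of all genes higher and 8.19% lower. Foxo3 had a level of 0.60 ± 0.60 with shRNA2 and 0.62 ± 0.51 with control virus (SD, n = 2 each). Its difference was -0.02 (slides 0.04 and -0.08), with a 95% interval of -0.50 to 0.46 with the block and a sign that turned with quantile normalization (0.036). Ulk1 was at 0.41 (slides 0.73 and 0.09), Sqstm1 at 0.36 (0.70 and 0.01) and Gabarapl2 at 0.33 (0.31 and 0.36). The receptors Bnip3l and Bnip3 were at -0.11 and -0.24. Both shRNA comparisons use the same control arrays.

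The shRNAs were then set against each other directly, both under DEX. Foxo3 was 1.96-fold higher with shRNA1 than with shRNA2, a difference of 0.97 (slides 1.09 and 0.85). Its limma adjusted p was 1 without the block and 0.282 with it, so the difference between the shRNAs did not pass (0% of all genes called with or without the block; 456 genes, 2.38%, had an unadjusted p below 0.05 without it). With the block Foxo3 alone of the 10 had one (8.65% of all genes higher, 2.35% lower). Ulk1 differed by 0.70 (slides 0.79 and 0.61) and Bnip3l by 0.42 (0.43 and 0.41). Gabarapl1 was lower with shRNA1 by 0.48 on the log2 scale (slides -0.55 and -0.40). Among the 10, Foxo3 and Becn1 were higher and Gabarapl1 lower without overlap between the arrays, against 12.3% of all genes higher and 4.57% lower. Becn1 differed by 0.36 (slides 0.59 and 0.12). Bnip3 went opposite ways on the slides (0.42 and -1.39), and Atg7 was at 0.02.

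**Figure D2:**
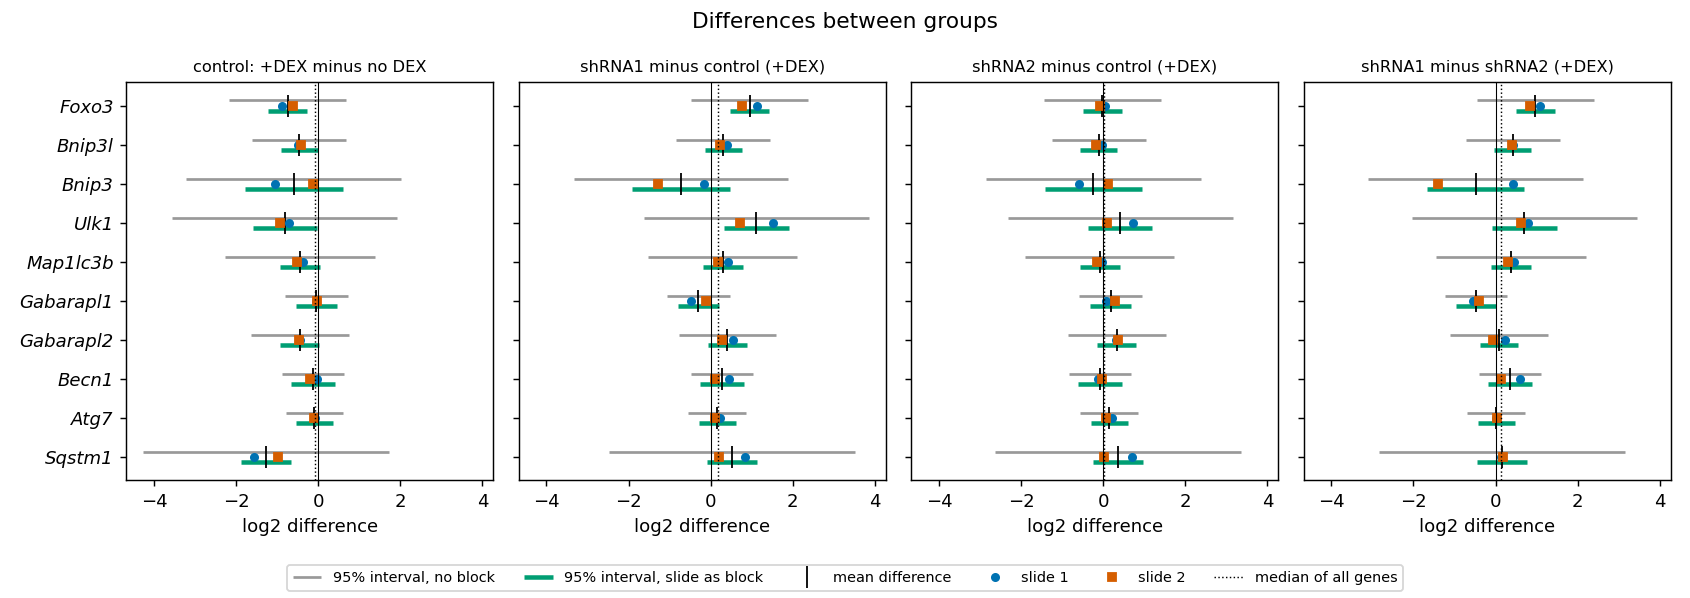
Log2 differences of the 10 genes in the 4 comparisons, each the first-named group minus the second. Bars are 95% intervals of limma without the block (grey) and with the slide as a block (green), circles and squares the 2 slides, ticks the means and dotted lines the median of all genes. On this scaling every mean lies left of 0 with DEX, with Sqstm1 at -1.27; Foxo3 lies at 0.95 with shRNA1 and -0.02 with shRNA2.

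The gap between slides was larger than any of the 4 mean differences between groups for Sqstm1, Ulk1, Bnip3, Map1lc3b, Gabarapl2, Bnip3l and Atg7, and smaller than the largest of them for Foxo3, Becn1 and Gabarapl1. Averaged over the 4 groups, slide 1 exceeded slide 2 by 2.10 for Sqstm1, 1.88 for Ulk1, 1.69 for Bnip3, 1.23 for Map1lc3b and 0.91 for Foxo3, against a median of 0.18 over all genes (10th to 90th percentile -0.86 to 1.40). The gap for Sqstm1 lay between 1.62 and 2.31 in the 4 groups, more than any of its differences between groups. That for Bnip3 lay between 0.65 with shRNA2 and 2.46 with shRNA1. Gabarapl1 ran the other way, at -0.27, and Becn1 and Atg7 lay near the median of all genes at 0.21 and 0.20. What differed between the slides is not given in the labels and was not tested.

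**Figure D3:**
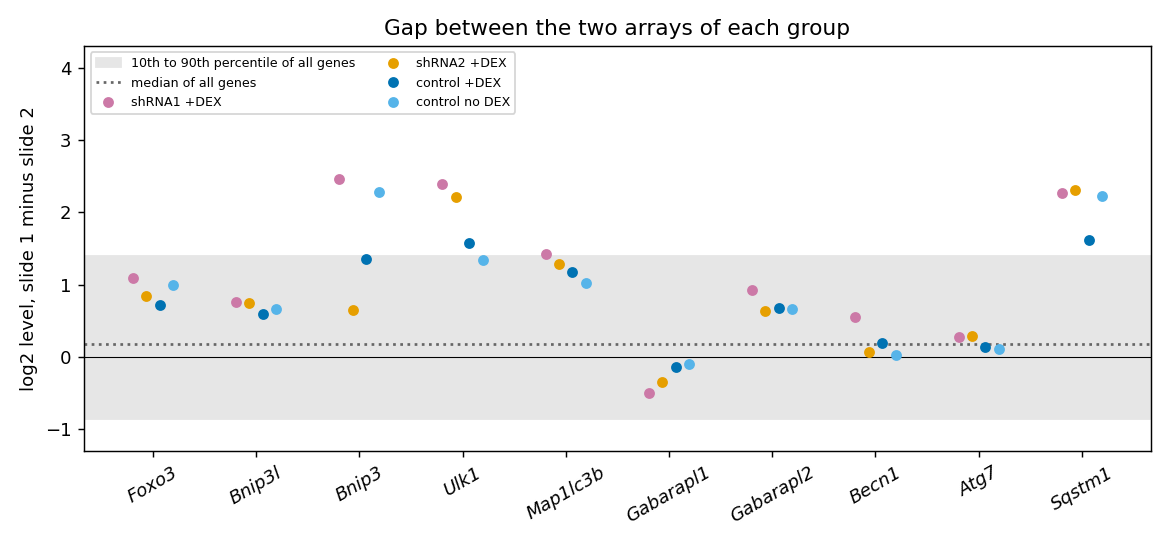
Slide 1 minus slide 2 in log2 level for each of the 10 genes, 1 point per group. The grey band spans the 10th to 90th percentile of all genes (-0.86 to 1.40) and the dotted line their median (0.18). Both were taken from gaps averaged over the 4 groups, whereas each point is the gap of 1 group. Sqstm1 lies above the band in all 4 groups and Ulk1 in 3, and Gabarapl1 lies below 0 in all 4.

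Genes with several probes allowed a check within the arrays. The second Foxo3 probe, at chr10:41905610-41905669 (mm9), differed by -0.63 with DEX, 0.59 with shRNA1 and 0.05 with shRNA2, the same signs on both slides for DEX and shRNA1 as the first probe. It was far dimmer, with a mean level of -4.01 against 1.04 for the first. Its arrays overlapped between the groups in every comparison, so the lack of overlap given above for Foxo3 holds for the first probe. The first probe is annotated to a cDNA clone and the second to the RefSeq mRNA, and which transcripts they read was not tested. The 4 Bnip3l probes were all lower with DEX (-0.17 to -0.47) and lay between 0.04 and 0.31 with shRNA1. With shRNA2 the probe at chr14:67604077-67604136 (mm9) was lower by 0.56 on the log2 scale, whereas the brightest was at -0.11. The 2 brighter probes of Bnip3 had nearly the same differences, and the third, the dimmest, was at 0.17 with DEX (slides -0.32 and 0.66) and -1.20 with shRNA1. The 2 Atg7 probes disagreed with shRNA1, at 0.16 for the brighter and -0.26 for the dimmer, at chr6:114657539-114657598 (mm9).

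**Figure D4:**
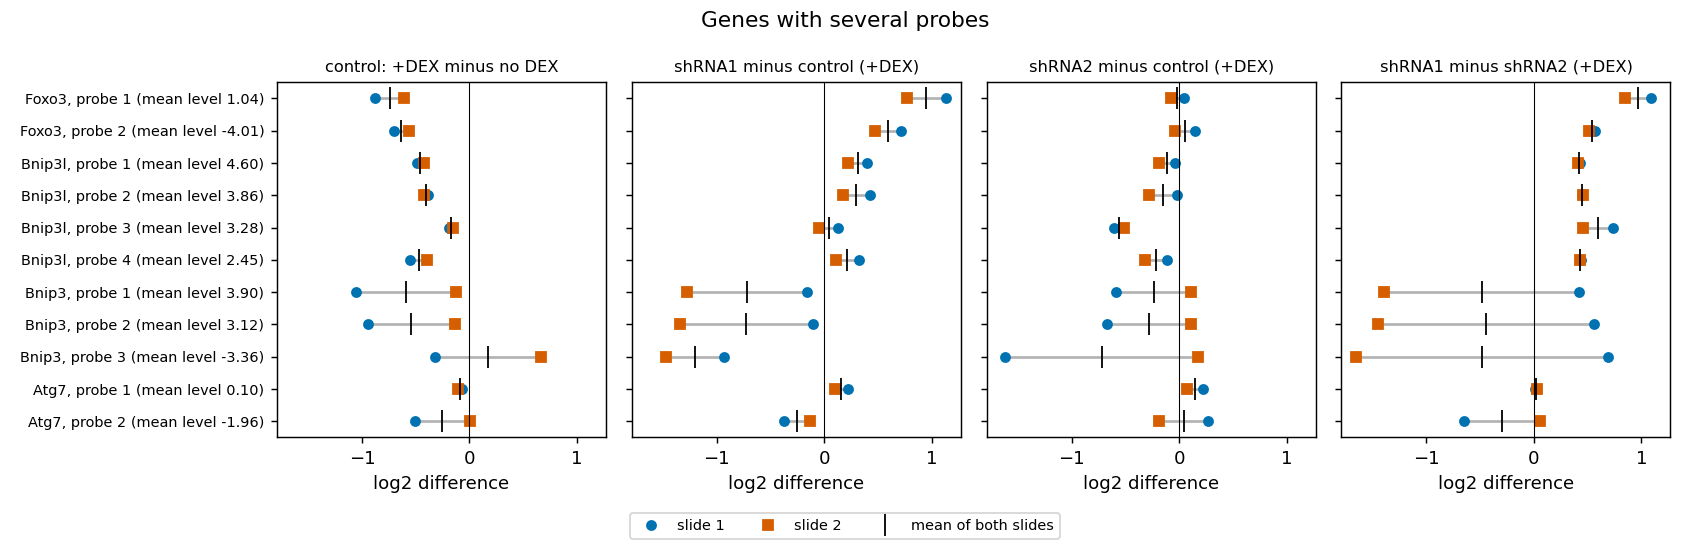
Log2 differences of every probe of the 4 genes with several probes, in the 4 comparisons; circles and squares are the 2 slides and ticks their mean, and probes of a gene run from the brightest down. Both Foxo3 probes lie right of 0 with shRNA1 (0.95 and 0.59); the Atg7 probes lie on opposite sides (0.16 and -0.26).

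The genes with profiles most like that of Foxo3 over the 8 arrays were Fzr1, Zrsr1, Rgs12, Art4 and Lrrc8b. The root mean square difference of their centred log2 levels from those of Foxo3 was 0.095 for Fzr1 and 0.11 for Lrrc8b, against a standard deviation of 0.68 for Foxo3 itself. Of the other 9 genes Bnip3l came closest to Foxo3, at 0.28 and rank 259 of all genes tested, and Bnip3 was the farthest at 0.84. The named genes closest to Bnip3l were Hscb at 0.082 and Myl3 at 0.087, and 3 probes without a gene symbol were among its 5 nearest. Both rankings hold the gap between slides as well as the treatments.

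The wider pathway was read from 6 lists of 101 genes, of which 96 were measured, and 0 of 96 passed in any of the 4 comparisons in limma with or without the block. At an unadjusted p below 0.05 with the block, 20 of 96 were reached with DEX, 20 with shRNA1, 3 with shRNA2 and 12 between the shRNAs, against 9.55%, 17.8%, 5.7% and 11% of all genes. The median of the 96 was -0.08 with DEX and 0.19 with shRNA1, close to those of all genes (-0.08 and 0.18). Counts of higher and lower genes hold for the 75th percentile scale: on the array median the median of all genes was 0.02 with DEX, -0.23 with shRNA1 and -0.23 with shRNA2, and small positive differences with either shRNA turn negative, the median of the lysosome list with shRNA2 among them. Named genes are among the 2 with the smallest p of their list in a comparison.

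Among the 15 genes of the autophagy start complexes, 7 were higher and 8 lower with DEX, where 38.39% of all genes had a positive difference. Pik3c3, the catalytic subunit of the Beclin 1 complex, was at 0.40 with DEX, -0.60 with shRNA1 and -0.51 with shRNA2, and Ambra1, a regulator of that complex, was at 0.62 with shRNA1 and 0.44 with shRNA2. Wipi1, a reader of the lipid that complex makes, and Atg9a, a membrane protein that supplies lipid, were each 1.05 higher with shRNA1 than with shRNA2. Of 11 measured genes of the ATG8 family and its conjugation, Atg4d, a protease that trims ATG8 proteins, was at 1.20 with shRNA1 (slides 1.27 and 1.12) and 0.80 with shRNA2 (0.82 and 0.77). Its arrays were free of overlap with control cells in both comparisons. With shRNA1 18% of all genes were higher without overlap, and with shRNA2 7.26%. Atg16l2, a relative of the conjugation scaffold, was at 0.78 with DEX and -0.83 with shRNA1.

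Of the 16 cargo receptor and mitophagy genes, 10 were lower with DEX and 11 higher with shRNA1. These counts are near the shares of all genes, of which 38.39% had a positive difference with DEX and 62.06% with shRNA1. Fundc1, a mitophagy receptor of the outer mitochondrial membrane, was at -0.68 with shRNA1 (slides -0.65 and -0.71) and -0.83 with shRNA2 (slides -0.72 and -0.94). Bnip3l had the opposite sign with shRNA1 (0.31, but -0.10 on the array median) and the same sign with shRNA2 (-0.11). Calcoco1, a receptor for the endoplasmic reticulum, was at -1.59 with DEX. Of the 20 lysosome and fusion genes, Ctsb, a lysosomal protease, was at -0.71 with DEX and 0.80 with shRNA1, and Lamp2, a lysosomal membrane protein, at -0.58 with shRNA1. With shRNA2, 16 of these 20 were higher, with a median of 0.19, against 0.01 for all genes, of which 51.37% had a positive difference.

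The 17 measured members of the FOXO family and textbook FOXO targets had a median of -0.28 with DEX and 0.41 with shRNA1, against 0.08 with shRNA2. The medians of all genes were -0.08 with DEX, 0.18 with shRNA1 and 0.01 with shRNA2. With DEX 10 were lower and 7 higher, with shRNA1 12 were higher and 5 lower, and with shRNA2 10 were higher and 7 lower. Over all genes, 38.39% had a positive difference with DEX, 62.06% with shRNA1 and 51.37% with shRNA2. Bcl6, a repressor, was at -2.01 with DEX (slides -2.03 and -1.99), between dim levels of -4.20 with DEX and -2.19 without it. Sesn1, an inhibitor of mTOR signalling, was at -0.68 with DEX (slides -0.70 and -0.67). Foxo1 was at -0.67 between shRNA1 and shRNA2, the opposite sign to Foxo3. Of the 17 measured kinase genes, Deptor, an inhibitor of mTOR, was at 0.96 with DEX and -1.16 with shRNA1, and Sgk1, a kinase named for its response to serum and glucocorticoid, was at 0.61 with DEX and -0.75 with shRNA1. With shRNA2, 14 of the 17 were lower; Rheb, the activator of mTOR, was at -0.79 (slides -0.97 and -0.60).

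**Figure D5:**
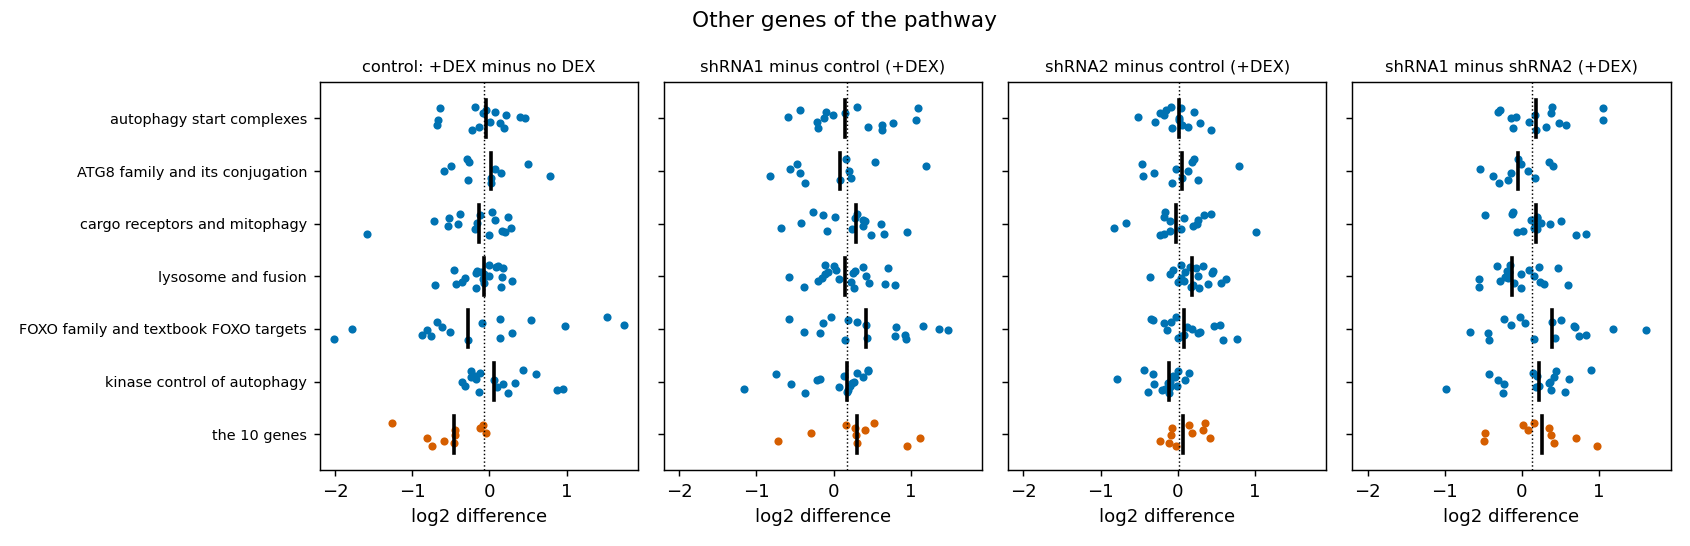
Log2 differences of the 96 measured pathway genes by list and of the 10 genes, in the 4 comparisons, with 1 point per gene, black bars for the medians and dotted lines for the median of all genes. The 10 genes have a median of -0.45 with DEX, and the FOXO list has the highest list median with shRNA1 (0.41).

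Markers of erythroid stage and of other cell types were read in the same fit, where none of them passed the test in any comparison. Counts and medians hold for the 75th percentile scale. On it 38.39% of all genes had a positive difference with DEX, 62.06% with shRNA1 and 51.37% with shRNA2. Of 11 measured late erythroid genes, such as Slc4a1 and Alas2, 10 were lower with DEX and 10 higher with shRNA1, with medians of -1.41 and 1.21, and with shRNA2 the median was -0.05. Their summed linear level was 686 to 1972 with shRNA1, 404 to 1289 with shRNA2, 408 to 925 in control cells with DEX and 645 to 1242 without it. This sum follows the brightest genes of the list. With shRNA2 5 of the 11 were higher and 6 lower. The 8 erythroid identity genes had a median of -0.46 with DEX (7 lower), 0.34 with shRNA1 (7 higher; negative on the array median) and -0.03 with shRNA2.

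The 12 neutrophil and granulocyte precursor genes were all higher with either shRNA than in control cells with DEX. Their medians were 1.62 with shRNA1 (slides 1.95 and 1.38) and 2.40 with shRNA2 (slides 4.14 and 0.78). Summed levels were 132 to 144 with shRNA1 and 89.7 to 541 with shRNA2. In control cells they were 36.9 to 65.4 with DEX and 40.6 to 180 without it. Each of the 12 was well above background on at least 1 array of every group. With DEX 10 of the 12 were lower, with a median of -0.97 (slides -0.18 and -1.64). Of 8 measured monocyte and macrophage genes, 8 were higher with shRNA1 and 7 with shRNA2, and 7 were lower with DEX. The medians were 0.93 with shRNA1 (slides 1.24 and 0.67), 1.57 with shRNA2 (slides 2.58 and 0.27) and -1.17 with DEX (slides -0.37 and -2.02). The summed level of the 11 on the array was low, at 3.39 to 9.08 with shRNA1, 2.02 to 14.0 with shRNA2, 1.73 to 3.15 in control cells with DEX and 3.95 to 5.45 without it, and Mrc1 and Vcam1 were not well above background in any group.

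The 9 megakaryocyte and platelet genes had medians of 0.72 with shRNA1, 1.05 with shRNA2 (slides 2.79 and -0.08) and -0.92 with DEX. They were summed at 22.8 to 82.2 with shRNA1, 14.4 to 206.5 with shRNA2, 19.0 to 31.7 in control cells with DEX and 50.9 to 70.7 without it. The 7 measured mast cell and basophil genes had medians of -0.18 with shRNA1, 1.02 with shRNA2 and -1.19 with DEX. With DEX 5 of them were lower and 2 higher. The summed level of the 9 on the array was 12.1 to 40.4 with shRNA1, 15.2 to 35.2 with shRNA2, 17.1 to 44.6 in control cells with DEX and 6.26 to 11.4 without it. A sum of linear levels follows the brightest genes, so the higher sum with DEX does not describe the list as a whole. The 4 measured lymphoid genes had medians of 0.69 with shRNA1 (slides 1.19 and 0.11), 0.71 with shRNA2 (slides 1.42 and 0.11) and -0.38 with DEX. The 6 measured hepatocyte genes had medians of 0.02 with shRNA1, -0.02 with shRNA2 and 0.53 with DEX, and the 9 on the array were summed at 1.58 to 2.55 with shRNA1, 1.45 to 2.28 with shRNA2, 1.60 to 2.77 in control cells with DEX and 1.30 to 1.36 without it. Of the 6 measured, 4 were higher and 2 lower with DEX. Ahsg and Apoa1, named after their values were seen, were higher without overlap, against 10.4% of all genes, and the arrays of the others overlapped. Apoa1 was at a difference of 4.33, from a low level of -5.98 without DEX. Ahsg, at -6.43 without DEX, was not well above background there. The part of these markers in the differences of the 10 genes was not tested.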

How the data were processed

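Total RNA of 8 samples was hybridised to 1-colour Agilent arrays. Per the file headers, the deposited intensity of a spot is the processed signal of Agilent Feature Extraction 10.1.1.1, on a linear scale after detrending. The authors also deposited log2 values made by steps that the sources used here do not give; they served as an alternative. Control spots (1377 of 44397) and outlier spots were left out, spots of a probe were averaged, and the log2 signal was set against the 75th percentile of its array. Tested probes were well above background in both arrays of some group, and the brightest such probe stood for its gene. Groups were compared in 1 fit of limma 3.58.1 (R 4.3.3) over 8 arrays, with Benjamini-Hochberg adjustment over 19128 genes and a threshold of 0.05. The slide pairs the arrays (above), so its block was the first alternative; the others were quantile normalization, the array median, normexp (offset 50), no filter on dim probes, every probe, the deposited log2 values and each array left out, with and without the block. Named genes were the 10, and from each pathway list the 2 with the smallest p per comparison, or fewer; some genes of these lists and of the marker lists are not reported here. The members and lists were chosen with earlier results of these data known. On simulated data for the shRNA1 comparison (19128 genes), limma with the block called 58 of 100 changes of 3 on the log2 scale and 0 of 100 changes of 1, and without it 0 of either. The number of arrays limits the precision. Plots were drawn with matplotlib 3.10.9.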

Additional observations from a re-analysis of the deposited data

How the results depend on the processing

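None of the 10 genes passed in any comparison under any of 23 alternatives (0 of 280 values, and 0 of 640 with an array left out), which says nothing of their stability, since in the simulated data limma called 0 of 100 changes of 1 on the log2 scale with or without the block. The directions of small differences depended on these choices. With the replicate block, genes called over all genes numbered 44 with DEX and 1 with shRNA2, against 0 without it, and no gene of the 10 changed its call. Leaving out 1 array gave 0 to 130 calls with DEX and 0 to 9 with shRNA2, and the counts above 0 all came with the block: 2 with DEX without control replicate 1 lacking DEX, 130 with DEX without either shRNA2 array, and 9 with shRNA2 without shRNA2 replicate 2.

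With quantile normalization the sign turned for Gabarapl1 with DEX (0.043), Foxo3 with shRNA2 (0.036), and Gabarapl2 (-0.013) and Atg7 (-0.025) between the shRNAs; with the authors' deposited values these were 0.049, 0.028, -0.034 and -0.042. Normexp turned Gabarapl1 with DEX (0.013) and Atg7 between the shRNAs (-0.015). The array median turned Gabarapl1 (0.052) and Atg7 (0.0057) with DEX; Bnip3l (-0.10), Map1lc3b (-0.12), Gabarapl2 (-0.00054), Becn1 (-0.13) and Atg7 (-0.25) with shRNA1; Gabarapl1 (-0.063) and Atg7 (-0.10) with shRNA2; and Gabarapl2 (-0.090), Atg7 (-0.15) and Sqstm1 (-0.0057) between the shRNAs. It moves every gene by the same amount within a comparison.

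Leaving out 1 array turned other signs; without the block, the lone array of a group then stood against arrays of both slides. With DEX the ranges were -0.24 to 0.0019 for Becn1, -1.73 to 0.55 for Bnip3, -0.15 to 0.068 for Gabarapl1 and -1.03 to 0.15 for Map1lc3b. With shRNA1 they were -1.95 to 0.51 for Bnip3, -0.074 to 0.69 for Bnip3l, -0.053 to 0.87 for Gabarapl2, -0.42 to 1.00 for Map1lc3b, -0.61 to 1.65 for Sqstm1 and -0.080 to 2.31 for Ulk1. With shRNA2 they were -0.0015 to 0.29 for Atg7, -0.17 to 0.018 for Becn1, -0.93 to 0.46 for Bnip3, -0.48 to 0.26 for Bnip3l, -0.031 to 0.62 for Foxo1, -0.44 to 0.40 for Foxo3, -0.0058 to 0.67 for Gabarapl2, -0.73 to 0.56 for Map1lc3b, -0.80 to 1.51 for Sqstm1 and -0.69 to 1.52 for Ulk1. Between the shRNAs they were -0.13 to 0.16 for Atg7, -0.042 to 2.14 for Atg9a, -1.72 to 0.75 for Bnip3, -0.38 to 0.54 for Gabarapl2, -0.34 to 1.08 for Map1lc3b, -0.99 to 1.32 for Sqstm1 and -0.49 to 1.90 for Ulk1. Foxo3 stayed negative with DEX (-1.24 to -0.24) and positive with shRNA1 (0.41 to 1.49) and between the shRNAs (0.43 to 1.51).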
